A study of Mus musculus with 15 samples.

Results

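A set of 10 tight junction genes is described here: the claudins Cldn2, Cldn3, Cldn4, Cldn7, Cldn8, Cldn15 and Cldn23, the junction membrane proteins Ocln (occludin) and Marveld2 (tricellulin), and the scaffold Tjp1 (ZO-1). They were chosen by gene symbol, for their place in the junction and with no measured value in the rule, and they are 10 of the 55335 genes in the expression files. All 10 were among the 14385 genes with at least 1 FPKM in at least 5 libraries, where FPKM counts fragments relative to transcript length and to the library's total. RNA was sequenced from colon tissue of 15 mice, in 3 groups of 5, and every mouse had received DSS (dextran sulfate sodium, a polymer that injures the colon lining), so no group shows the uninjured colon. DSS+ICB+Fp mice had DSS, immune checkpoint blockade (ICB) and gavage with the gut bacterium F. prausnitzii, DSS+ICB mice had DSS and ICB, and DSS mice had DSS alone. The strain, age and sex of the mice, the checkpoint antibodies, any control antibody or control gavage, and the cages are not given in the sources used here.

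Tight junctions close the gap between neighbouring epithelial cells. Claudins polymerise into the strands of the junction and set which ions can pass: claudin-2 and claudin-15 form channels for small cations, while claudins such as claudin-3, claudin-4 and claudin-8 tighten the seal. Occludin and tricellulin are related proteins of the same strands, tricellulin lying at the corners where cells meet, and ZO-1 ties the strands to the actin skeleton. In the colon, claudin-2 belongs mainly to the crypts, and a fall of sealing claudins with a gain of claudin-2 is a known feature of colitis.

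The promoters of a few of these genes are shown. Cldn2 was nearly absent in some libraries of every group, Cldn4 had a lone high library in each group, and Tjp1 varied least over the 15 libraries. Ocln is shown as an example of the common pattern. Like every member except Cldn4, it had a lower mean in DSS+ICB mice than in both other groups, without passing the test. Each sequence is the 250 bases upstream of the RefSeq start on GRCm38.p6, read 5′ to 3′ on the gene's strand, at chrX:139800558-139800807 (plus strand) for Cldn2, chr5:134946935-134947184 (minus strand) for Cldn4, chr13:100552719-100552968 (minus strand) for Ocln and chr7:65371245-65371494 (minus strand) for Tjp1. Capitals mark the matches, on either strand, to 3 short motifs that share no bases here. The motif known as the TATA box reads TATAAA. Sp1-type factors bind the GC box, which was searched as GGGCGG. Repressors of the Snail family bind the E-box, which was searched as CAGGTG.
Cldn2: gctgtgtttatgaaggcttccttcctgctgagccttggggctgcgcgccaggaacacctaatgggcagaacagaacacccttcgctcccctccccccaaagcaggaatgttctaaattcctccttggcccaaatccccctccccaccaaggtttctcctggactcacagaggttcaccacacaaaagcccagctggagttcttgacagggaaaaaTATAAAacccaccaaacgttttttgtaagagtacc
Cldn4: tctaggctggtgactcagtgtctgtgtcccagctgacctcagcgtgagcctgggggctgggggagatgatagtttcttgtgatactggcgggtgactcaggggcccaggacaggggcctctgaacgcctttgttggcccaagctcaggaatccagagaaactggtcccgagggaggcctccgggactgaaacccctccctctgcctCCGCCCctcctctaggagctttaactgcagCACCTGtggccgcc
Ocln: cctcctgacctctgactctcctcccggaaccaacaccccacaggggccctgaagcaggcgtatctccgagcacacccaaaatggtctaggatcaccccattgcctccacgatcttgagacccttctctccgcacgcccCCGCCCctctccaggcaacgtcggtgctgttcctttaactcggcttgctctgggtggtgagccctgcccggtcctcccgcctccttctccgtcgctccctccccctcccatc
Tjp1: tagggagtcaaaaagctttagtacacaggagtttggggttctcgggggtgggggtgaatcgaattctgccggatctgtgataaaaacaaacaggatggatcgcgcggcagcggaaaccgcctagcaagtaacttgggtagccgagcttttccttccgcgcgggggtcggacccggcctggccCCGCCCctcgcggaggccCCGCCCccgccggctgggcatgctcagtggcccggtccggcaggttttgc
The Cldn2 window held a TATAAA that starts 35 bases upstream of the RefSeq start and no GC box. Of 27025 promoter windows of the same length, 13% held TATAAA, 33% a GC box and 17.1% the E-box. The Cldn4 window held a GC box 44 bases and an E-box 14 bases upstream of the start, both read on the opposite strand. Ocln had 1 GC box and Tjp1 had 2. Of the 6 members whose window could be searched (Cldn2, Cldn3, Cldn4, Cldn7, Ocln and Tjp1), 1 held TATAAA, 4 a GC box and 1 the E-box. These matches describe the letters of the windows and nothing more.

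By estimates from the smallest steps between FPKM values, the libraries held 15.24 to 24.76 M (mega) fragments. The files give no counts, so these depths hold only if the values were not scaled further. Over all genes, limma called 3 genes higher and 0 lower in DSS+ICB than in DSS mice (Il11, Saa3 and Mmp10, named after their values were seen), and 1 higher (Ces1e) and 18 lower in DSS+ICB+Fp than in DSS+ICB mice. DSS+ICB libraries 3 and 5 stood apart: ranked over all genes, they correlated with the rest at a median of 0.725 and 0.864, against at least 0.922 for the other 13. Library 3 had a geometric mean of 41.7 FPKM over 10 epithelial markers (220.1 to 352 FPKM in the others), 1288 FPKM of the smooth muscle gene Myh11 and 593 FPKM of the neutrophil gene S100a8. Because of this, each member's comparisons with DSS+ICB mice are also given without these 2 libraries. The same holds for such log2 differences where they are printed for other junction genes. Epcam, a gene of epithelial cells, was at 83.0 FPKM in DSS+ICB 3 and at 472 FPKM or more in the other libraries. Every library thus held epithelial RNA, which does not by itself identify the colon. In such bulk tissue, fewer epithelial cells and less RNA per epithelial cell cannot be told apart.

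The members were ranked by median FPKM over the 15 libraries, a scale per transcript length. Cldn3 came first at 208 FPKM, then Cldn7 at 184 FPKM and Cldn8 at 74.0 FPKM. Cldn2 followed at 42.9 FPKM, then Tjp1 at 22.1, Ocln at 21.0, Cldn4 at 17.5, Marveld2 at 12.2, Cldn23 at 11.7 and Cldn15 at 9.4 FPKM. Cldn7 was above Cldn8 in 15 of 15 libraries, and Cldn3 was above Cldn7 in 13 of 15. Tjp1 and Ocln could not be ordered (Tjp1 was higher in 7 of 15 libraries), nor Ocln and Cldn4 (Ocln higher in 8 of 15), nor Marveld2 and Cldn23 (Marveld2 higher in 6 of 15). Cldn4 was above Marveld2 in 14 of 15 libraries, and Cldn23 above Cldn15 in 12 of 15.

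**Figure D1:**
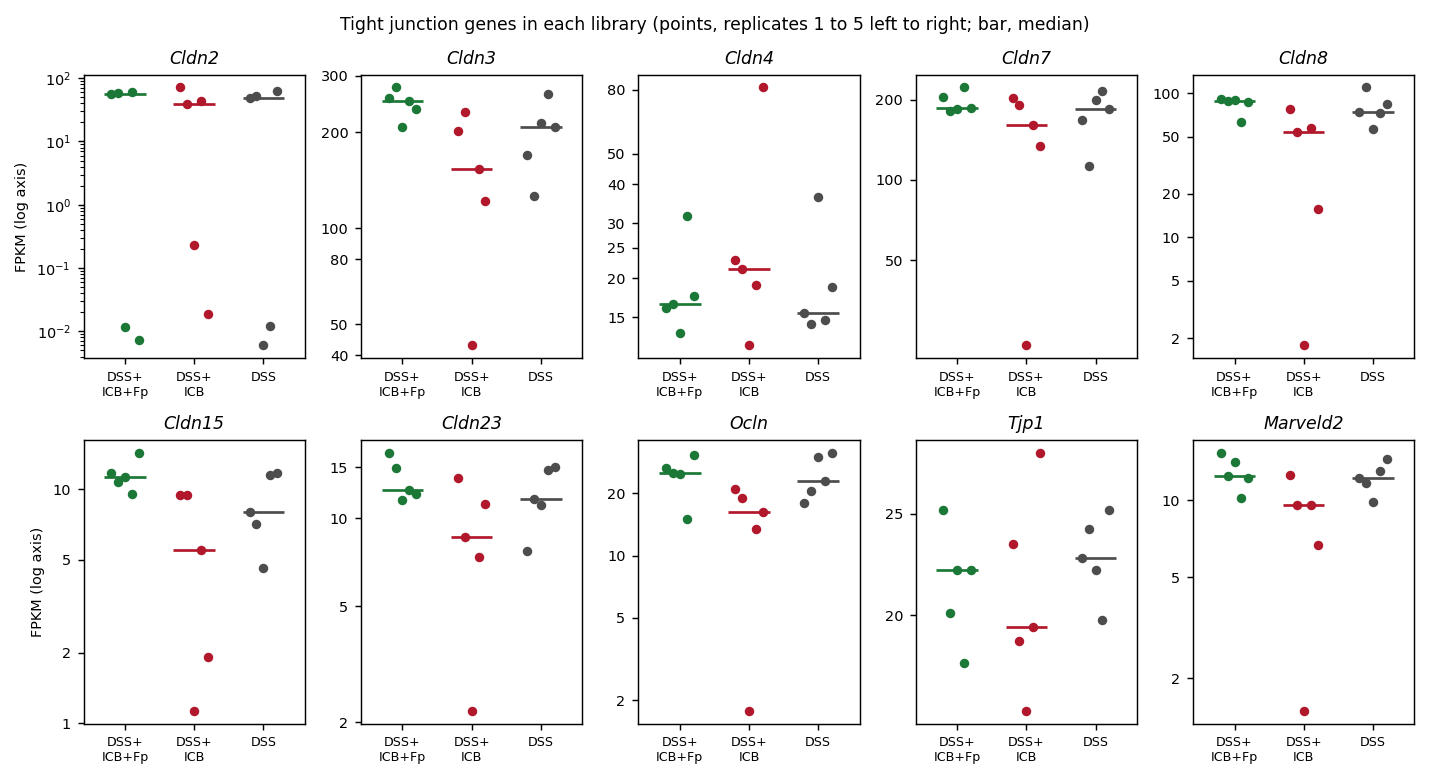
FPKM of the 10 tight junction genes (log axes) in DSS+ICB+Fp, DSS+ICB and DSS mice; each point is 1 library and each bar a group median. Cldn2 has points under 1 FPKM in all 3 groups, and for each of the other 9 genes the lowest point is a DSS+ICB library.

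The pore-forming Cldn2 was either abundant or nearly absent, in every group. It measured 57.2, 58.5, 0.0117, 60.9 and 0.00743 FPKM in DSS+ICB+Fp mice, 71.4, 38.9, 0.23, 42.9 and 0.0191 FPKM in DSS+ICB mice, and 49.2, 52.6, 0.00598, 0.0122 and 62.5 FPKM in DSS mice. Each group thus had 2 libraries under 1 FPKM and 3 at 38.9 FPKM or more, with nothing between 0.23 and 38.9 FPKM, as the plot of members by library shows. Given the estimated depths and the longest of its 3 annotated transcripts (3044 bases), the low libraries held about 0.383 to 10.7 fragments of Cldn2 and the high ones about 2045 to 4619. The highest of the low libraries was DSS+ICB 3. The groups overlapped fully, and limma gave log2 differences of -0.03 ± 1.79 (SE) for DSS+ICB against DSS (adjusted p = 0.997), 0.09 ± 1.79 for DSS+ICB+Fp against DSS+ICB (adjusted p = 0.983) and 0.07 ± 1.79 for DSS+ICB+Fp against DSS (adjusted p = 1.0). With this spread, a 95% interval of -3.84 to 3.79 for DSS+ICB against DSS leaves several-fold changes undetectable. With DSS+ICB 3 and 5 left out, both of which lacked Cldn2, the log2 difference was 2.17 for DSS+ICB against DSS (adjusted p = 0.74) and -2.1 for DSS+ICB+Fp against DSS+ICB (adjusted p = 0.599). Among the 9 libraries with Cldn2, the range was 57.2 to 60.9 FPKM in DSS+ICB+Fp mice, 38.9 to 71.4 in DSS+ICB mice and 49.2 to 62.5 in DSS mice.

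The break between the low and high Cldn2 libraries was 5.02 on the log2(FPKM + 1) scale. Of 14385 genes, 10 had a break over 2.5 with at least 4 libraries on each side. Among them, 1 (the predicted gene Gm47308, at 5.4) had a larger break than Cldn2. The rest were the predicted genes Gm47305, Gm10260, Gm27924 and Gm22579, the pseudogene Usf2-ps1, the small RNA gene Snord12, the histone gene Hist2h2aa1 and Kctd12. They are named after their values were seen. Very little else divided the libraries the same way. Only Minos1, Tpd52-ps and Gm38166 were higher, and only Inpp4a lower, in all 9 libraries with Cldn2 than in all 6 without it, and these genes are named after their values were seen. Minos1 ran from 30.1 to 45.3 FPKM with Cldn2 and from 23.3 to 29.0 FPKM without it. The other members and the epithelial gene Epcam overlapped between both sets: Epcam had a median of 602 FPKM in the 9 libraries with Cldn2 and 582 FPKM in the 6 without. The geometric mean of 10 epithelial markers overlapped too, at 242 to 352 FPKM with Cldn2 and 41.7 to 329.7 FPKM without it. Its lower values lay mostly on the side without Cldn2, and Cldn2 correlated with the markers' mean at a Spearman value of 0.56 without DSS+ICB 3. A list of crypt genes held Lgr5, Ascl2, Smoc2, Axin2, Cdca7, Olfm4, Rgmb, Slc12a2, Agr2 and Spdef. Agr2 and Spdef are genes of secretory cells, so the list is not specific to stem cells. A sum of FPKM also follows the most abundant genes of a list. The sums were 489 to 602 FPKM in DSS+ICB+Fp, 64.1 to 633 in DSS+ICB and 319.7 to 651 in DSS libraries. Most libraries without Cldn2 were at the low end of these sums: they had 602 and 489 FPKM in DSS+ICB+Fp 3 and 5, 64.1 and 155 in DSS+ICB 3 and 5, and 319.7 and 465 in DSS 3 and 4. DSS+ICB+Fp 3 is the exception, with the highest sum of its group, and the sums spanned a far smaller range than Cldn2. The part of the crypt cells in this was not tested. The labels give no cage, litter or strain for these libraries.

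The other pore-forming claudin, Cldn15, measured 11.7, 10.7, 11.3, 9.52 and 14.3 FPKM in DSS+ICB+Fp mice, 9.4, 9.4, 1.13, 5.49 and 1.92 FPKM in DSS+ICB mice, and 7.99, 7.08, 4.6, 11.5 and 11.7 FPKM in DSS mice. Every DSS+ICB+Fp library was above every DSS+ICB library, although the lowest of one and the highest of the other were close, and this was the only case among the 10 members and 3 comparisons in which the groups did not overlap. Over all genes, 0.945% had all 5 DSS+ICB+Fp libraries above all 5 DSS+ICB libraries. The log2 difference was 1.22 ± 0.39 (95% interval 0.38 to 2.06), and its adjusted p of 0.119 by limma did not pass. It was 0.48 without DSS+ICB 3 and 5 (adjusted p = 0.321). Against DSS, the difference was -0.78 ± 0.39 in DSS+ICB mice (adjusted p = 0.455) and 0.44 ± 0.39 in DSS+ICB+Fp mice (adjusted p = 1.0). For DSS+ICB it was -0.04 without those 2 libraries (adjusted p = 0.97).

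Among the sealing claudins, Cldn8 had the log2 differences farthest from 0 in both comparisons with DSS+ICB mice. For DSS+ICB+Fp against DSS it was at 0.09, nearer to 0 than Cldn3 (0.35) and Cldn7 (0.18). It measured 90.8, 88.0, 89.6, 63.3 and 87.1 FPKM in DSS+ICB+Fp mice, 77.2, 53.9, 1.78, 57.1 and 15.7 FPKM in DSS+ICB mice, and 74.0, 109.6, 56.7, 73.4 and 84.6 FPKM in DSS mice. DSS+ICB libraries 3 and 5 were far below all others. DSS+ICB 2, at 53.9 FPKM, was also below every library of the other groups. DSS+ICB 4, at 57.1 FPKM, lay within the range of DSS mice only, and DSS+ICB 1 within the ranges of both groups. The means were 83.8 ± 11.5 FPKM in DSS+ICB+Fp, 41.1 ± 31.3 in DSS+ICB and 79.6 ± 19.5 in DSS mice (SD, n = 5). The log2 difference was -1.61 ± 0.67 for DSS+ICB against DSS (adjusted p = 0.43) and 1.7 ± 0.67 for DSS+ICB+Fp against DSS+ICB (adjusted p = 0.169). Without DSS+ICB 3 and 5 the same differences were -0.32 and 0.42.

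Cldn3 and Cldn7, the most abundant members, varied less. Cldn3 measured 255, 276, 208, 250.0 and 237 FPKM in DSS+ICB+Fp mice, 202, 232, 42.9, 153 and 122 FPKM in DSS+ICB mice, and 170.1, 126, 214, 264 and 208 FPKM in DSS mice. Cldn7, a claudin also found along the lateral membrane, measured 204, 181, 184, 222 and 186 FPKM in DSS+ICB+Fp mice, 202, 191, 24.0, 160.2 and 134 FPKM in DSS+ICB mice, and 168, 113, 199, 216 and 184 FPKM in DSS mice. In both, DSS+ICB library 3 lay far below the rest and the groups overlapped. For Cldn3 the log2 difference of DSS+ICB+Fp against DSS+ICB was 0.9 ± 0.36 (adjusted p = 0.169), or 0.34 without DSS+ICB 3 and 5. For Cldn7 it was 0.75 ± 0.44 (adjusted p = 0.33), or 0.09 without them. For DSS+ICB against DSS, Cldn3 was at -0.54 ± 0.36 (adjusted p = 0.531 by limma) and Cldn7 at -0.58 ± 0.44 (adjusted p = 0.586 by limma). Without DSS+ICB 3 and 5, Cldn3 was at 0.01 and Cldn7 at 0.09 in this comparison. Cldn23, a claudin of differentiated intestinal epithelium, ranged from 11.6 to 16.8 FPKM (median 12.5) in DSS+ICB+Fp mice, 2.19 to 13.8 (median 8.67) in DSS+ICB mice and 7.74 to 15 (median 11.7) in DSS mice. Its groups overlapped too, with a log2 difference of 0.75 ± 0.32 for DSS+ICB+Fp against DSS+ICB (adjusted p = 0.193). Cldn23 was at 0.45 there without DSS+ICB 3 and 5 (adjusted p = 0.294 by limma). For DSS+ICB against DSS it was at -0.57 ± 0.32 (adjusted p = 0.48 by limma), or -0.26 without those libraries.

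Cldn4 was the member that ran the other way. It measured 16.1, 16.6, 13.4, 31.7 and 17.5 FPKM in DSS+ICB+Fp mice, 22.9, 21.4, 12.2, 19.1 and 81.4 FPKM in DSS+ICB mice, and 15.5, 14.3, 36.3, 14.7 and 18.8 FPKM in DSS mice. Each group had a lone high library, namely DSS+ICB+Fp 4, DSS+ICB 5 and DSS 3, and the groups overlapped. The log2 difference was 0.4 ± 0.41 for DSS+ICB against DSS (adjusted p = 0.686) and -0.43 ± 0.41 for DSS+ICB+Fp against DSS+ICB (adjusted p = 0.553). Without DSS+ICB 5 these became -0.02 and -0.02, and without both DSS+ICB 3 and 5 they were 0.17 and -0.2.

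The lone high Cldn4 libraries were also low for Cldn8, Cldn15 and Marveld2, but not for every member. DSS+ICB+Fp 4 had the lowest Cldn8 (63.3 FPKM), Cldn15 (9.52 FPKM) and Marveld2 (10.2 FPKM) of its group. DSS 3 likewise had the lowest Cldn8 (56.7 FPKM), Cldn15 (4.6 FPKM) and Marveld2 (9.82 FPKM) of its group, and DSS+ICB 5 had the second lowest of each after DSS+ICB 3. Against this, DSS+ICB+Fp 4 had the highest Cldn7 of its group (222 FPKM), and DSS+ICB 5 the highest Tjp1 (28.6 FPKM). DSS 3 was second highest in its group for Ocln (29.8 FPKM), Cldn3 (214 FPKM) and Cldn7 (199 FPKM). The FPKM ratio of Cldn4 to Cldn8 was 0.149 to 0.5 in DSS+ICB+Fp libraries, 0.297 to 6.86 in DSS+ICB libraries and 0.131 to 0.64 in DSS libraries. It was 0.297, 0.397 and 0.334 in DSS+ICB 1, 2 and 4, and 6.86 and 5.17 in DSS+ICB 3 and 5. This ratio was chosen after the values were seen and was not tested. Cldn4 and Cldn3 are neighbours on chromosome 5, with 39279 bases between them, yet DSS+ICB 5 had the highest Cldn4 and the second lowest Cldn3 of all 15 libraries.

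**Figure D2:**
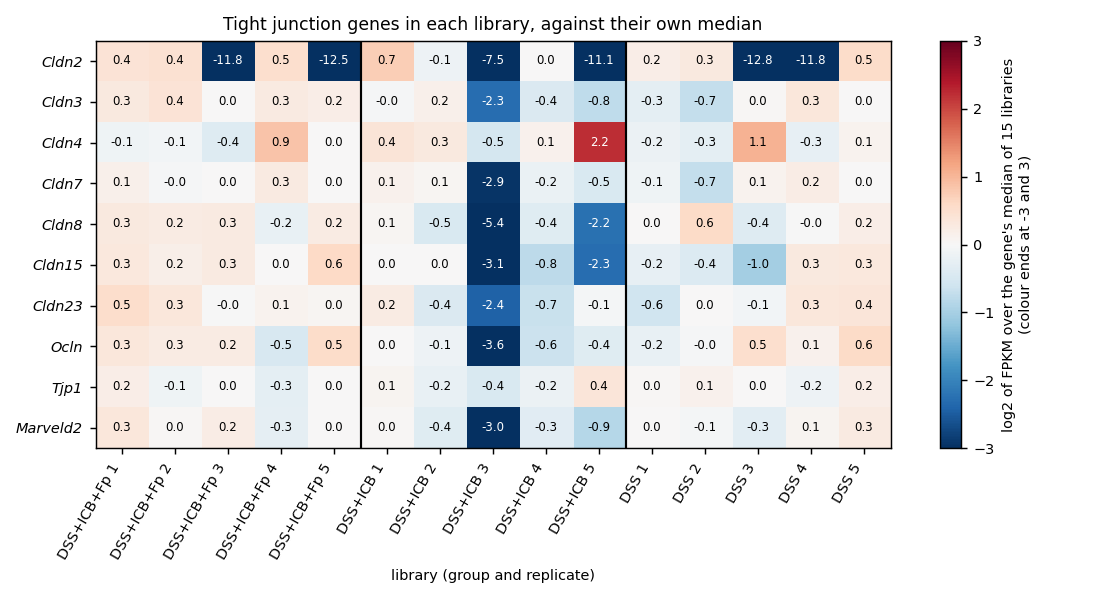
Each cell is the log2 of a gene's FPKM in 1 library over its median of 15 libraries (colour ends at -3 and 3); lines divide DSS+ICB+Fp, DSS+ICB and DSS. DSS+ICB 3 is low for most members but at -0.45 for Tjp1 and -0.52 for Cldn4, and DSS+ICB 5 is at 2.22 for Cldn4 and -2.24 for Cldn8.

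Ocln, which regulates the passage of larger molecules, measured 26.5, 25, 24.8, 15.1 and 30.6 FPKM in DSS+ICB+Fp mice, 21.0, 19.0, 1.78, 13.4 and 16.2 FPKM in DSS+ICB mice, and 18, 20.6, 29.8, 23.0 and 31.4 FPKM in DSS mice. Most DSS+ICB libraries were at the low end, but the groups overlapped. The log2 difference was -1.0 ± 0.44 for DSS+ICB against DSS (adjusted p = 0.434) and 0.99 ± 0.44 for DSS+ICB+Fp against DSS+ICB (adjusted p = 0.213). Without DSS+ICB 3 and 5 these were -0.44 and 0.42. Marveld2, the gene of tricellulin, measured 15.4, 12.5, 14.2, 10.2 and 12.2 FPKM in DSS+ICB+Fp mice, 12.6, 9.56, 1.49, 9.61 and 6.69 FPKM in DSS+ICB mice, and 12.2, 11.7, 9.82, 13 and 14.6 FPKM in DSS mice. Here 4 of the 5 DSS+ICB libraries were below all libraries of the other 2 groups, and DSS+ICB 1 lay among them. The log2 difference was -0.75 ± 0.34 for DSS+ICB against DSS (adjusted p = 0.435) and 0.82 ± 0.34 for DSS+ICB+Fp against DSS+ICB (adjusted p = 0.183), or -0.19 and 0.26 without DSS+ICB 3 and 5. Ocln and Marveld2 lie 43238 bases apart on chromosome 13.

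Tjp1, the scaffold gene, varied least over all 15 libraries, with a coefficient of variation of 14.7% against 29.2% for Cldn7, the next lowest. Within DSS+ICB+Fp mice alone, Cldn7 and Cldn3 varied less than Tjp1. It measured 25.2, 20.1, 22.1, 18 and 22.1 FPKM in DSS+ICB+Fp mice, 23.4, 18.9, 16.2, 19.5 and 28.6 FPKM in DSS+ICB mice, and 22.7, 24.2, 22.1, 19.8 and 25.2 FPKM in DSS mice. Both the lowest and the highest value belonged to DSS+ICB libraries, 3 and 5. Its intervals were the narrowest of the set: the log2 difference was -0.11 (95% interval -0.42 to 0.19) for DSS+ICB against DSS and 0.03 (-0.28 to 0.34) for DSS+ICB+Fp against DSS+ICB. These were -0.14 and 0.06 without DSS+ICB 3 and 5.

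Read as a set, 0 of the 10 members were called in any comparison by limma at an adjusted p under 0.05. For DSS+ICB against DSS, 0.0209% of all genes were called. There 9 of 10 members had a log2 difference below 0, with Cldn4 above it, against 47.2% of all genes below 0, and the members' median was -0.57 against 0.02 for all genes. At an unadjusted p under 0.05, 3 members were lower (Cldn8, Ocln and Marveld2) and 0 higher, where 4.22% of all genes were lower. For DSS+ICB+Fp against DSS+ICB, 0.132% of all genes were called. There 9 of 10 members were above 0 with Cldn4 below it, against 44.5% of all genes above 0, and the median was 0.79 against -0.04 for all genes. At an unadjusted p under 0.05, 6 members were higher (Cldn15, Cldn8, Cldn3, Marveld2, Cldn23 and Ocln) and 0 lower, where 9.34% of all genes were higher. Without DSS+ICB 3 and 5, 6 of 10 members were below 0 for DSS+ICB against DSS, with a median of -0.09. For DSS+ICB+Fp against DSS+ICB, 8 of 10 were above 0 without these libraries, with a median of 0.3. In both cases 0 members were then higher and 0 lower at an unadjusted p under 0.05 by limma. Both comparisons share the DSS+ICB libraries, so they are not separate evidence. For DSS+ICB+Fp against DSS, 0% of all genes were called, and 0.591% were higher and 0.82% lower at an unadjusted p under 0.05, against 0 members. There 7 of 10 members were above 0, as were 47.1% of all genes, and the members' median was 0.08 against -0.01.

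**Figure D3:**
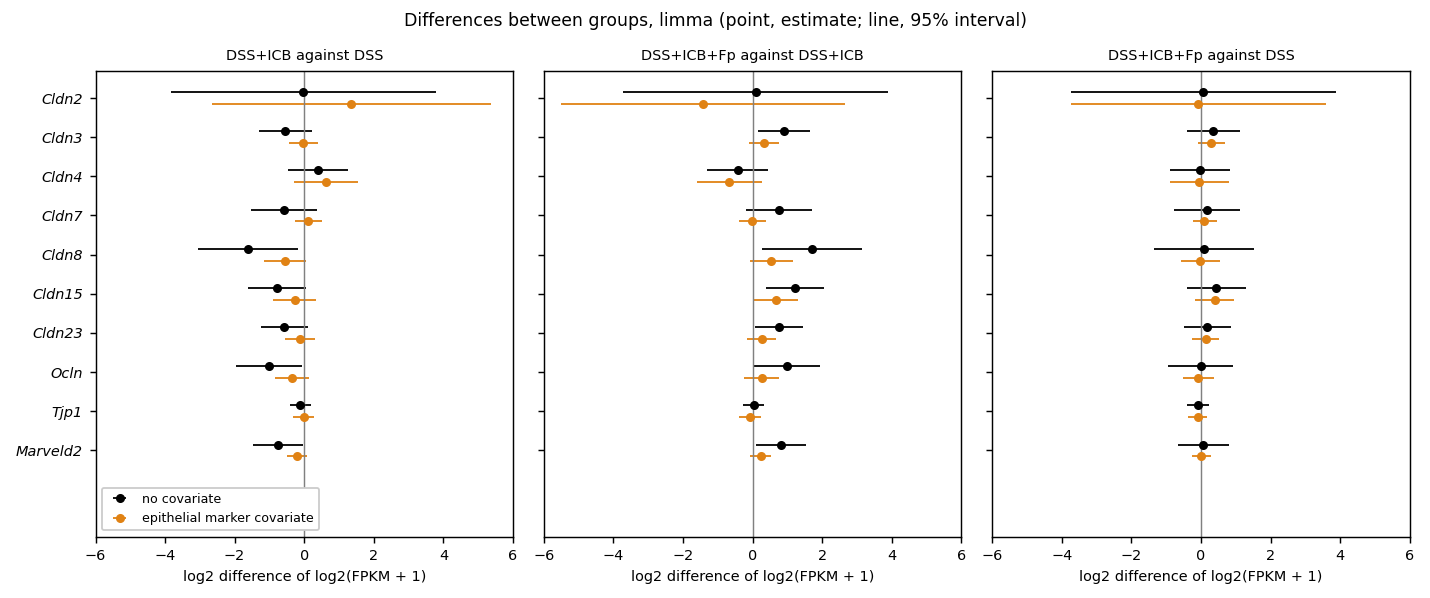
Log2 differences of log2(FPKM + 1) between groups for the 10 genes, with 95% intervals, from limma without (black) and with (orange) the epithelial marker mean as a covariate. With the covariate, Cldn8 is at -0.55 for DSS+ICB against DSS, where it was at -1.61 without it.

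Epithelial marker levels followed some members more closely than others. Without DSS+ICB 3, the Spearman rank correlation with their mean was 0.51 to 0.56 for Cldn2, Cldn7, Cldn15, Cldn23 and Marveld2. It was 0.37 for Cldn3, 0.36 for Cldn8, 0.17 for Ocln, -0.11 for Tjp1 and -0.2 for Cldn4. The 10 epithelial markers summed to 5039 to 7474 FPKM in DSS+ICB+Fp, 799.9 to 6796 in DSS+ICB and 4931 to 6408 in DSS libraries, with 0 of 10 called in any comparison and 10 of 10 below 0 in DSS+ICB against DSS. Their median log2 difference was -0.72 there and 0.82 for DSS+ICB+Fp against DSS+ICB, or -0.02 and 0.12 without DSS+ICB 3 and 5. Their mean of log2(FPKM + 1) was 5.47 in DSS+ICB 3 and 7.8 to 8.47 in the other libraries. DSS+ICB 3 therefore weighs heavily in the covariate used below. None of the 10 markers was under 1 FPKM in every library. With their mean as a covariate, the log2 differences for DSS+ICB against DSS were -0.55 for Cldn8, -0.34 for Ocln, -0.22 for Marveld2, -0.27 for Cldn15, -0.03 for Cldn3 and 0.12 for Cldn7. For DSS+ICB+Fp against DSS+ICB they were 0.54 for Cldn8, 0.26 for Ocln, 0.23 for Marveld2, 0.33 for Cldn3 and -0.02 for Cldn7. Cldn15 was at 0.66 ± 0.29 there (adjusted p = 0.206). Cldn4 was at 0.62 for DSS+ICB against DSS and -0.67 for DSS+ICB+Fp against DSS+ICB, farther from 0 than without the covariate.

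Library by library, the members kept different ratios to the epithelial markers. Cldn7 stayed at 55.7% to 64.0% of the markers' geometric mean in DSS+ICB+Fp, 55.0% to 66.3% in DSS+ICB and 35.8% to 73.9% in DSS libraries. In DSS+ICB 3, the library with the fewest epithelial transcripts, the markers stood at -2.91 log2 units from their median of 15 libraries, and Cldn7 stood at -2.94 from its own. Marveld2 at -3.03 and Cldn15 at -3.06 stood close to the markers there, and Cldn3 (-2.28) and Cldn23 (-2.42) above them. Cldn8 stood at -5.38 and Ocln at -3.56, below the markers. Cldn4 at -0.52 and Tjp1 at -0.45 were near their medians, so that Tjp1 reached 38.8% of the marker mean in that library, against 5.12% to 13% in the other 14. In DSS+ICB 5 the markers were at -0.51, with Cldn7 at -0.46, while Cldn8 was at -2.24, Cldn15 at -2.29 and Cldn4 at 2.22.

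**Figure D4:**
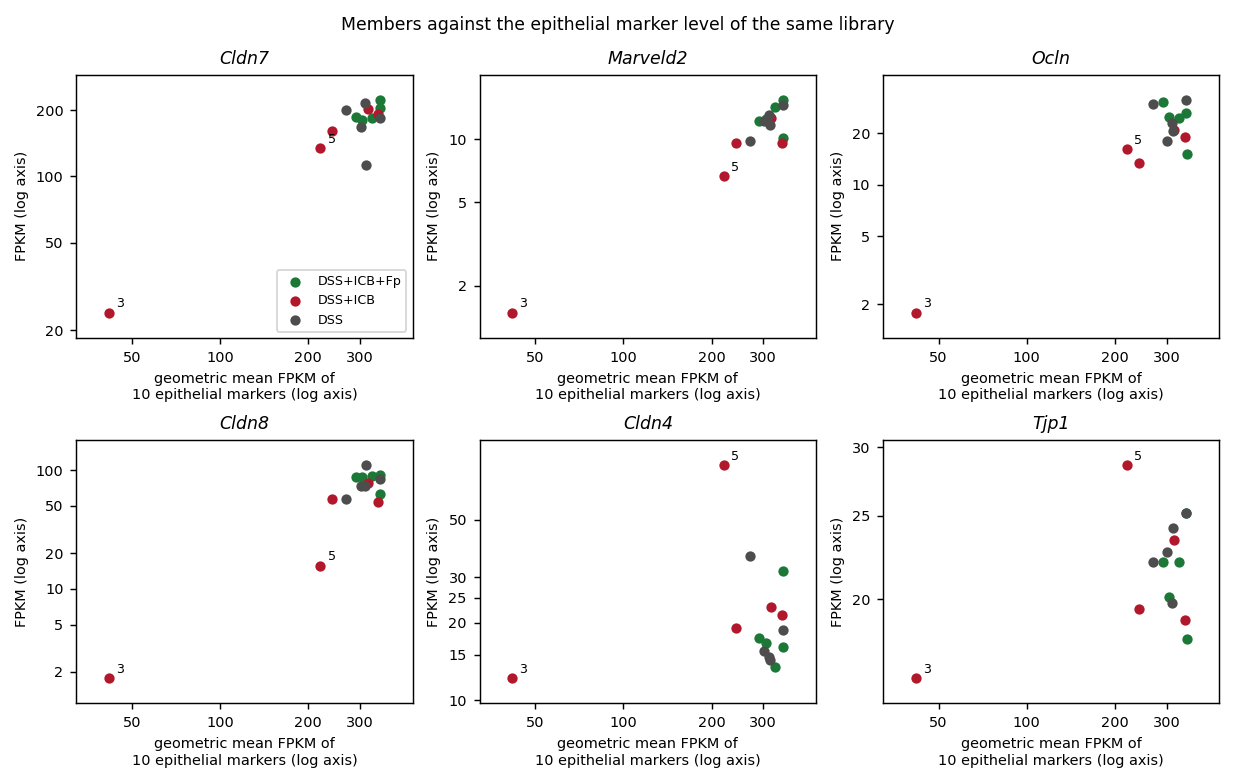
FPKM of 6 genes against the geometric mean FPKM of 10 epithelial markers (log axes), 1 point per library, coloured by group; DSS+ICB 3 and 5 are numbered. Cldn7 and Marveld2 are far below the other libraries in DSS+ICB 3, as the markers are, whereas Cldn4 and Tjp1 are at 12.2 and 16.2 FPKM there, near their next lowest libraries.

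Levels of markers of other cells are given beside these values; of those named here, only neutrophil markers had a call. The 10 neutrophil markers summed to 3.03 to 36.3 FPKM in DSS+ICB+Fp, 135 to 2080.5 in DSS+ICB and 22.8 to 61.8 in DSS libraries, and 5 of 10 were called lower in DSS+ICB+Fp than in DSS+ICB mice. S100a8 was listed at 0 in 2 DSS+ICB+Fp libraries. The 10 fibroblast markers summed to 326 to 625 FPKM in DSS+ICB+Fp, 612 to 1095 in DSS+ICB and 394 to 587 in DSS libraries. The 10 smooth muscle markers summed to 1497 to 4329 FPKM in DSS+ICB+Fp, 1135 to 15562 in DSS+ICB and 1614 to 4964 in DSS libraries, the top value being DSS+ICB 3. For absorptive colonocytes, 11 of 12 markers were tested and 0 called: their median log2 difference was -1.2 for DSS+ICB against DSS and 1.59 for DSS+ICB+Fp against DSS+ICB, or -0.41 and 0.54 without DSS+ICB 3 and 5. Slc26a3, the chloride exchanger of these cells, ranged from 25.9 to 184 FPKM in DSS+ICB+Fp, 0.296 to 31.6 in DSS+ICB and 39.4 to 69.5 in DSS libraries. The part of these cells in the members' values was not tested.

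Most other claudins were scarce. Of 21 further claudins listed, 20 were in the files and 16 of them stayed under 1 FPKM in every library. Cldn1, a sealing claudin, measured 0.975 to 1.58 FPKM in DSS+ICB+Fp, 1.65 to 5.53 in DSS+ICB and 0.768 to 2.37 in DSS libraries. Every DSS+ICB+Fp library was below every DSS+ICB library, as for 2.46% of all genes. The log2 difference there was -0.72 ± 0.25 (adjusted p = 0.13 by limma), or -0.4 without DSS+ICB 3 and 5. For DSS+ICB against DSS it was 0.59 ± 0.25 (adjusted p = 0.43 by limma), or 0.27 without those libraries. Cldn5, the claudin of blood vessel endothelium, measured 2.63 to 7.54 FPKM in DSS+ICB+Fp, 3.77 to 22.5 in DSS+ICB and 1.82 to 7.91 in DSS libraries. Its groups overlapped. It ran opposite to most members, with a log2 difference of 1.01 ± 0.41 for DSS+ICB against DSS (adjusted p = 0.43 by limma). For DSS+ICB+Fp against DSS+ICB it was at -1.03 ± 0.41 (adjusted p = 0.173 by limma). Without DSS+ICB 3 and 5 these differences were 0.69 and -0.71. Cldn14, a claudin best known from the inner ear and kidney, measured 1.13 to 2.01 FPKM in DSS+ICB+Fp, 0.0 to 1.3 in DSS+ICB and 0.639 to 1.35 in DSS libraries. Its log2 difference was 0.54 ± 0.21 for DSS+ICB+Fp against DSS+ICB (adjusted p = 0.159), 0.5 ± 0.21 for DSS+ICB+Fp against DSS (adjusted p = 1.0) and -0.04 ± 0.21 for DSS+ICB against DSS (adjusted p = 0.946). Without DSS+ICB 3 and 5, Cldn14 was at 0.35 for DSS+ICB+Fp against DSS+ICB and 0.15 for DSS+ICB against DSS. The 10 endothelial markers summed to 34.9 to 57.6 FPKM in DSS+ICB+Fp, 57.3 to 137 in DSS+ICB and 31.2 to 67.7 in DSS libraries. Cldn12 was not scarce: its median of 12.9 FPKM (4.38 to 19.3) was above those of Marveld2, Cldn23 and Cldn15. It averaged 14.5 ± 3.32 FPKM in DSS+ICB+Fp, 9.79 ± 4.2 in DSS+ICB and 14.1 ± 4.25 in DSS mice (SD, n = 5). Its log2 difference was -0.54 for DSS+ICB against DSS and 0.6 for DSS+ICB+Fp against DSS+ICB. Without DSS+ICB 3 and 5 these were -0.09 and 0.15.

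Partner proteins of the junction were measured too, and 0 were called in any comparison. Of 19 tested tight junction genes outside the set, 4 were higher at an unadjusted p under 0.05 in DSS+ICB+Fp than in DSS+ICB mice, against 9.34% of all genes. There 11 of the 19 were above 0 and 8 below, against 44.5% of all genes above 0, and their median log2 difference was 0.11. With DSS+ICB 3 and 5 left out, 2 of the 19 were higher at an unadjusted p under 0.05, and the median was 0.08. Cxadr, an adhesion receptor of the junction, averaged 28.2 FPKM in DSS+ICB+Fp, 15 in DSS+ICB and 25.5 in DSS mice, and its log2 difference for DSS+ICB+Fp against DSS+ICB was 1.17 ± 0.47 (adjusted p = 0.174). Marveld3, a relative of occludin, was at 1.02 ± 0.44 there (adjusted p = 0.195), and the scaffold Tjp3 (ZO-3) at 0.98 ± 0.43 (adjusted p = 0.206). Lsr and Ildr1, angulins that recruit tricellulin, were at 0.75 ± 0.37 and 0.69 ± 0.4. Cgn (cingulin) was at 0.84 ± 0.44, while the adhesion molecule F11r (JAM-A) was nearer to 0, at 0.32 ± 0.25. Leaving out DSS+ICB 3 and 5 put Cxadr at 0.49, Marveld3 at 0.36, Tjp3 at 0.26, Lsr at 0.22, Cgn at 0.2, Ildr1 at 0.13 and F11r at 0.08.

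Polarity proteins, adherens junctions and transcription factors were counted in the same way, with 0 called. The named genes include the differences farthest from 0 in each list. In the background, 44.5% of all genes were above 0 for DSS+ICB+Fp against DSS+ICB, and 0.945% had all 5 DSS+ICB+Fp libraries above all 5 DSS+ICB libraries. Of 10 polarity genes, 9 were above 0 in DSS+ICB+Fp against DSS+ICB, with a median of 0.12. Crb3, an apical polarity protein, ranged from 14.5 to 18.8 FPKM in DSS+ICB+Fp, 1.84 to 13.6 in DSS+ICB and 11.8 to 16.6 in DSS libraries, so DSS+ICB+Fp and DSS+ICB did not overlap. Prkcz, the atypical kinase of the Par complex, did not overlap either, at 5.25 to 7.4 FPKM in DSS+ICB+Fp and 0.743 to 5.17 FPKM in DSS+ICB libraries (adjusted p = 0.116), and Llgl2 was at 0.97 ± 0.38. Of 16 genes of adherens junctions and desmosomes, 14 were above 0 with a median of 0.37; Cdh1 (E-cadherin) averaged 262 FPKM in DSS+ICB+Fp, 197 in DSS+ICB and 253 in DSS mice, and the desmosome genes Dsp and Dsc2 were at 0.79 ± 0.51 and 0.49 ± 0.49. Of 11 tested transcription factors of junction genes, 11 were above 0, with a median of 0.7. Vdr, the vitamin D receptor, averaged 58.5 FPKM in DSS+ICB+Fp, 21.4 in DSS+ICB and 41.2 in DSS mice (1.92 ± 0.63 for DSS+ICB+Fp against DSS+ICB, adjusted p = 0.123). Klf4, a factor of differentiated colonocytes, ranged from 128 to 201 FPKM in DSS+ICB+Fp and 13.5 to 127 FPKM in DSS+ICB libraries, and Hnf4a was at 1.1 ± 0.5, while Cdx2 was at 0.36 ± 0.41. Without DSS+ICB 3 and 5, the medians of the polarity, adherens and transcription factor lists were 0.05, 0.09 and 0.14. Then Crb3 was at 0.43, Prkcz at 0.38, Llgl2 at 0.39, Vdr at 0.75, Klf4 at 0.57, Hnf4a at 0.33 and Cdx2 at 0.05. Cdh1 was at 0.16 and Dsp at 0.1, while Dsc2 was at -0.1. Elf3, another of these factors, is also among the epithelial markers.

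The genes most like each member were taken by Spearman rank correlation of FPKM over the 15 libraries, given as a description since all values share their libraries. Cldn7 was nearest to the epithelial adhesion gene Epcam (0.92) and to the membrane protease St14 (0.9). Cldn15 was nearest to Pdzd3 (0.97), a scaffold of apical transporters, and to Hnf4a (0.96). For Cldn8 the nearest were the energy metabolism genes Mdh1 (0.98) and Hadhb (0.96), for Marveld2 Tmco3 (0.97) and Baiap2l1 (0.96), and for Ocln H2-Q2 (0.95) and Ralgps1 (0.91). Cldn3 was nearest to Ascc1 (0.94) and Chmp1a (0.93), and Cldn23 to the dicarboxylate transporter Slc13a2 (0.92) and to Rph3al (0.92). Cldn4 was nearest to Rtl10 (0.89) and to the cytoskeletal actin Actg1 (0.89), and Tjp1 to Skil (0.94) and Inpp5b (0.94), none of which is an epithelial marker of the list. Cldn2 had the weakest best match, at 0.76 for Ccn3 and 0.75 for Fut2. Without DSS+ICB 3, these values for Cldn8, Cldn15, Cldn4 and Cldn2 and their first match were 0.97, 0.96, 0.87 and 0.76 over 14 libraries.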

How the data were processed

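Colon RNA of 15 mice was deposited as 1 table per library. Per the submitters' processing notes, the authors used FastQC, STAR 2.5 on mm10, Cuffnorm and DESeq. The deposited values are taken as FPKM, from the tool named and from the values, which are not whole; whether they were scaled further, and whether reads were counted by strand, is not given in the sources used here. Of 55335 gene IDs, 55154 matched a GENCODE M21 symbol. Depth was estimated from the FPKM steps of 10677 genes with a single transcript. Between 31.9% and 40.8% of low values lay within 0.03 log2 of a whole step, so whole reads were not recovered and no count test was used.

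Genes with at least 1 FPKM in at least 5 libraries were tested as log2(FPKM + 1), which understates changes of low genes, with limma 3.58.1 (R 4.3.3; trend and robust), in 1 fit of all libraries with a mean per group. Tests were two-sided, with Benjamini-Hochberg adjustment over 14385 genes and a threshold of 0.05. The script was tested on simulated data with 200 changed genes. Groups come from the treatment labels, and replicates are numbered in accession order. The p-values set the differences between group means against the spread between libraries within groups. The alternatives were 2 scalings, 2 pseudocounts, 2 filters, fits of only the compared groups, library quality weights, an epithelial marker covariate, totals taken without mitochondrial transcripts, and fits with libraries left out.

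The members, gene lists and tests were chosen with earlier results of these data known. Named genes are the members, a fixed set of markers and junction genes, the largest differences of each junction list, and the 2 most correlated genes per member, leaving out predicted genes. Promoters are RefSeq windows (GRCm38.p6) for 8 of 10 members; those of Cldn15 and Marveld2 overlap an exon and were not searched. Genes that overlap members in the annotation stayed at or under 0.61 FPKM.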

Additional observations from a re-analysis of the deposited data

Results flagged for a closer look

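Of 30 groups of 5 libraries (10 genes in 3 groups), 4 held a library set apart from the rest. Its gap to the next value was over 0.71 of the group's range, Dixon's limit for 5 samples. For normally distributed values, chance alone flags about 1 group in 20. The 30 groups here share the same 15 libraries. For Cldn4, the high library was at 31.7 FPKM in DSS+ICB+Fp (replicate 4, next value 17.5), at 81.4 FPKM in DSS+ICB (replicate 5, next value 22.9) and at 36.3 FPKM in DSS mice (replicate 3, next value 18.8). For Cldn8, DSS+ICB+Fp replicate 4 was low, at 63.3 FPKM against a next value of 87.1 FPKM. That library is the one with the high Cldn4. What sets these libraries apart was not tested.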

How the results depend on the processing

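No paired analysis was possible because the labels give no replicate number or match between mice of different groups. The count of members called was 0 in each comparison under each of the 26 alternatives, and the lowest adjusted p of any member was 0.0503, for Cldn15 in DSS+ICB+Fp against DSS+ICB without DSS+ICB 1. Of the members' log2 differences under these alternatives, 733 kept their direction and 47 reversed. Part of those kept could not change. Other filters, fits of only the compared groups and leaving out a library of the third group keep the compared means. Under these settings only the p-values can move, so the count of differences kept overstates their stability. For DSS+ICB against DSS, Cldn2 reversed to 0.26 with a pseudocount of 0.1, 1.3 with quality weights, 1.35 with the epithelial covariate and 2.17 without DSS+ICB 3 and 5; Cldn3 reversed to 0.01 without both, and Cldn7 to 0.12 with the covariate and 0.09 without both. For DSS+ICB+Fp against DSS+ICB, Cldn2 reversed to -0.19, -1.48, -1.43 and -2.1 under those same settings, and with the covariate Cldn7 reversed to -0.02 and Tjp1 to -0.07. For DSS+ICB+Fp against DSS, Cldn2 reversed to -0.19 with quality weights and -0.08 with the covariate, Cldn4 to 0.01 with upper-quartile scaling, Cldn8 to -0.02 with the covariate, and Ocln to 0.01 with median-of-ratios scaling, 0.02 with upper-quartile scaling and 0.05 with quality weights.

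Leaving out 1 library at a time reversed Cldn2 (-0.89 to 0.83) and Cldn4 (-0.02 to 0.64) for DSS+ICB against DSS, Cldn2 (-0.77 to 0.98) and Tjp1 (-0.06 to 0.14) for DSS+ICB+Fp against DSS+ICB, and Cldn2 (-0.8 to 0.95), Cldn4 (-0.22 to 0.2), Cldn8 (-0.02 to 0.21), Ocln (-0.11 to 0.14) and Marveld2 (-0.0 to 0.14) for DSS+ICB+Fp against DSS. Without DSS+ICB 3 alone, Cldn8 was at -0.8 against DSS, where it was -1.61 with all libraries. Over all genes, the count called for DSS+ICB against DSS was 0 to 7 leaving out 1 library and 0 to 3 under the other alternatives; for DSS+ICB+Fp against DSS+ICB it was 5 to 587 and 0 to 964, the top count with quality weights; for DSS+ICB+Fp against DSS it was 0 throughout. The split by direction moved too: for DSS+ICB against DSS it was 0 higher and 1 lower with only both compared groups fitted (3 and 0 with all groups fitted), and for DSS+ICB+Fp against DSS+ICB it was 226 higher and 361 lower without DSS+ICB 1 and 221 and 743 with quality weights, against 1 and 18. The cause of these shifts was not tested.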
